A study of Mus musculus with 12 samples.

Results

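Carbonic anhydrases are the enzymes that convert CO2 and water into bicarbonate and a proton. The genes described are Car2, Car3, Car4, Car8, Car9, Car11, Car12 and Car14, measured in MIN6 cells, a β-cell line from an insulinoma of mice that carry the simian virus T antigen under an insulin promoter. The arrays were Affymetrix U74 version 2 chips, a set of 3 named A, B and C, and every probe set whose platform symbol was exactly 1 of these names was used. This gave 12 probe sets for 8 genes, out of 21 probe sets for 16 carbonic anhydrase genes and 36701 probe sets for 15964 genes on the chips. The family was chosen by the high Car2 value in Pr-HP cells, so the differences of the 8 genes between Pr-HP and the other populations are described without a test.

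Of the 4 populations, Pr-LP and Pr-HP were parental cells, passaged 17 to 20 times and 35 to 40 times. C4-LP and C4-HP were cells of clone 4, passaged 17 to 20 times and 40 to 50 times. Clone 4 is 1 subclone, obtained by limiting dilution from parental cells of low passage number. All were kept in medium with 25 mM glucose and received no other treatment. The study called both clone 4 populations and Pr-LP responder cells, since they secrete insulin when glucose rises, and called Pr-HP non-responder cells, and it asked which genes differ with this response. Culture age and loss of the response cannot be told apart in Pr-HP.

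Each population was hybridised once to each chip, 12 arrays in all, so there were no replicates, and precision is limited by how few arrays there are. A value is the deposited intensity of a probe set on a linear scale, and levels of different probe sets are not set against each other, since probes differ in brightness. The SD given beside a responder mean is the spread over 3 populations (n = 3), not between replicates, and Pr-HP has no error. Intensities under the 20th percentile of the chip (67.3 units on chip A, 58.6 on B and 29.1 on C) were treated as the floor, below which values have no order. The array medians of a chip lay within 214.2 to 216.0, 161.9 to 162.7 and 92.5 to 92.9 units on chips A, B and C. As a sign of RNA quality, the 3′ over 5′ ratio of the Gapdh controls was lowest in Pr-HP on all 3 chips (0.867, 0.953 and 1.16, against 0.968 to 1.31 elsewhere). For the Actb controls this held on A and B, while on C the lowest ratio was that of C4-LP. The part of RNA quality in the values of Pr-HP was not tested.

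The family is divided by where the proteins sit. Car2 and Car3 are cytosolic, Car4 is tied to the outer membrane face by a lipid anchor, and Car9, Car12 and Car14 cross the membrane with their catalytic domain outside. Car8 and Car11 have lost zinc-binding residues of the active site and have no known carbonic anhydrase activity. Car8 binds the inositol trisphosphate receptor, a calcium channel of the endoplasmic reticulum, and Car11 is known mainly from the brain. In islets, carbonic anhydrase activity has been linked to insulin secretion through work with enzyme inhibitors.

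Car9 is a textbook target of the hypoxia-inducible factors, which bind ACGTG next to the start of the gene, so the 100 bases before the start sites were searched for that motif on both strands. RefSeq windows (GRCm38.p6) were matched for 5 of the 8 genes, with 6 windows, and those of Car9 and Car14 hold it. They are printed 5′ to 3′ on the strand of the gene, with the match in capitals (CACGT, the motif read on the other strand). The Car9 window is chr4:43506926-43507025 on the plus strand, with the match beginning 18 bases before the start, and the Car14 window is chr3:95904686-95904785 on the minus strand, with the match beginning 7 bases before the start.
Car9: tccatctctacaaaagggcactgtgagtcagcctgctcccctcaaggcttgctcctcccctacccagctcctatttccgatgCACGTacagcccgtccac
Car14: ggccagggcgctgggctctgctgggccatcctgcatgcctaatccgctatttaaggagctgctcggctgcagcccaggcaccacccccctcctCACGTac
The motif is in 2658 of 32851 windows of this length (8.09%), and a match is a description of the letters, not of binding. The windows of Car4, Car11 and Car12 do not hold these letters. The set of windows used here held none for Car2, Car3 and Car8.

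Car2, the fast cytosolic enzyme that is abundant in red cells, kidney and ducts of the pancreas, was the member with the widest range. Its only probe set (92642_at, chip A) read 139.5 in Pr-LP, 1831 in Pr-HP, 131.4 in C4-LP and 161.9 in C4-HP. The 3 responder populations lie close together at 144.3 ± 15.8 (SD, n = 3), above the floor, and Pr-HP lies apart from them. Pr-HP was 12.7 times the responder mean and 11.3 times the highest responder population, a log2 difference of 3.67. With no array-level error, the order of C4-LP, Pr-LP and C4-HP below it is not resolved. In RNA of a whole culture, more cells that carry Car2 and more Car2 RNA per cell cannot be told apart. The study also reported Car2 as high in Pr-HP and low in the responder cells by quantitative RT-PCR. The array ratio it printed for this probe set was larger than the one given here.

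The other cytosolic member, Car3, a low-activity enzyme of muscle and fat, stayed near the floor. Probe set 111700_at on chip B read 78.1 in Pr-LP, 77.8 in Pr-HP, 88.7 in C4-LP and 92.0 in C4-HP. On chip A, 160375_at read 72.8, 61.1, 68.1 and 61.5 in the same order, with Pr-HP and C4-HP under the floor. Neither probe set exceeded the 40th percentile of its chip on any array (121.6 units on B and 152.7 on A), which was the condition for entering a test. The high value of Car2 in Pr-HP was not seen in Car3, its neighbour in the genome.

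Among the membrane-bound enzymes the 4 populations lay close together. Car4 probe set 161818_f_at read 245.5 in Pr-LP, 291.2 in Pr-HP, 262.8 in C4-LP and 278.1 in C4-HP. Pr-HP was 1.11 times the responder mean of 262.2 ± 16.3 (SD, n = 3). The second Car4 probe set, 103046_at, read 151.9 in Pr-LP, 126.3 in Pr-HP, 132.6 in C4-LP and 126.3 in C4-HP, and was not tested since none of these reaches the 40th percentile of chip A. The pair disagree in direction, with log2 differences of 0.15 and -0.11, and the suffix _f_at marks probes that can detect related sequences, so no direction is given for Car4.

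Car9, the tumour- and hypoxia-associated enzyme whose upstream letters are shown above, read 176.4 in Pr-LP, 177.9 in Pr-HP, 164.3 in C4-LP and 168.3 in C4-HP (167049_at, chip C). This was the narrowest range of the representative probe sets, 0.12 on the log2 scale. Car14, whose window also holds the motif, was measured on 2 chips. On chip A, 98079_at read 354.1 in Pr-LP, 364.7 in Pr-HP, 390.4 in C4-LP and 384.3 in C4-HP. On chip B, 114914_at read 372.3, 402.6, 362.8 and 395.7 in that order. Pr-HP was inside the range of the responder populations on chip A and just above it on chip B (log2 differences of -0.04 and 0.10), so the direction of Car14 depends on the probe set.

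Car12, a membrane enzyme of kidney and colon, read 70.5 in Pr-LP, 74.6 in Pr-HP, 77.9 in C4-LP and 81.6 in C4-HP (103905_at, chip A). These values start just above the floor and were not tested.

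Car8 and Car11 are the members without known catalytic activity. Car8 probe set 166848_at on chip C read 137.9 in Pr-LP, 80.0 in Pr-HP, 77.6 in C4-LP and 80.7 in C4-HP. Pr-LP alone stood high, while Pr-HP and both clone 4 populations lay together. Pr-LP was 1.72 times Pr-HP and 1.78 times C4-LP. Of the 23340 tested probe sets, 5.26% differed at least as much between the parental populations, and 4.12% did so between C4-LP and Pr-LP. The log2 difference of Pr-HP from the responder mean, -0.25, rests on Pr-LP and was 0.01 without it. On chip A, 102773_at read 57.6, 26.6, 23.6 and 29.7, all under the floor, so it gives no second measurement of this pattern.

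Car11 read 510.6 in Pr-LP, 464.0 in Pr-HP, 488.8 in C4-LP and 509.0 in C4-HP (163310_at, chip B). Pr-HP lay below the 3 responder populations, at 0.923 times their mean of 502.8 ± 12.2 (SD, n = 3). A log2 difference at least as large was found in 53.3% of tested probe sets.

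**Figure D1:**
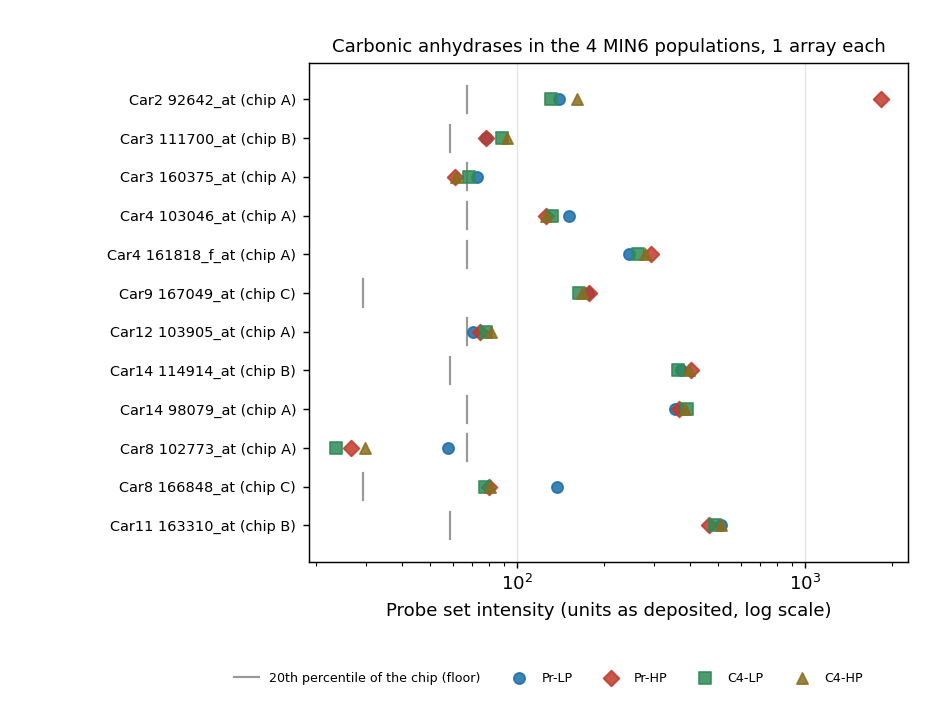
Intensity (units as deposited, log scale) of the 12 probe sets of the 8 carbonic anhydrase genes in the 4 MIN6 populations, with 1 array for each point. The grey tick is the floor of the chip. Car2 in Pr-HP stands apart at 1831 units, Car8 probe set 166848_at is highest in Pr-LP at 137.9 units, and the points of the other probe sets above the floor lie close together.

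Across the family, 9 of 12 probe sets had a highest value under 1.3 times the lowest (1.08 to 1.202 times), a limit set after the values had been seen. This share of 75.0% is near the 71.5% of all 36701 probe sets. The exceptions were the single Car2 probe set, the Car8 probe set 166848_at, and 102773_at of Car8, which is under the floor throughout and whose range is not read. Of the 12 probe sets, 7 (6 genes) passed the filter on dim values and 5 did not. The median log2 difference of Pr-HP from the responder cells over these 7 was 0.07, beside -0.0016 over all tested probe sets. Pr-HP lay above all 3 responder populations in 4 of the 7 and below all of them in 1, against 29.5% and 28.2% of the other tested probe sets. Car2, by which the family was chosen, is among those above. Car4 161818_f_at, Car14 114914_at and Car9 exceeded the nearest responder population by only 0.067, 0.025 and 0.013 on the log2 scale. The count is thus no support for a difference of the family.

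Over all 23340 tested probe sets, limma called 15 higher in Pr-HP (0.0643%) and 4 higher in the responder cells (0.0171%) at an adjusted p of 0.05 (Benjamini-Hochberg). An unadjusted p under 0.05 was reached by 9.79%. These shares, and those of probe sets with Pr-HP above (29.5%) or below (28.2%) all responder populations, are the background for the gene lists given further on. The fit leaves 2 residual degrees of freedom, with the spread taken from the 3 responder populations and the variance of the single Pr-HP array assumed to be like theirs.

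The design holds 4 comparisons of single populations, which have no test and were read against a difference of over 2-fold with the higher value at 100 units or more. Between the parental cells of high and low passage number, 3.11% of tested probe sets passed this rule. Car2 was the 1 member to do so among the 7 tested, at 13.1 times its Pr-LP value in Pr-HP. Between clone 4 cells of high and low passage number the background was 1.28% and 0 of 7 members passed. Car2 in C4-HP was 1.23 times its value in C4-LP, a difference reached or exceeded by 16.7% of tested probe sets.

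Between C4-LP and Pr-LP, the clone and the parental cells at the same passage numbers, 2.6% of probe sets passed and 0 of 7 members did. Car8 was the member with the widest difference there, at 0.563 times its Pr-LP value. Between C4-HP and Pr-HP, both of high passage number, 2.5% passed. Car2 was again the 1 member to pass, with Pr-HP at 11.3 times C4-HP. These comparisons share populations, so the high value of Car2 in Pr-HP enters 2 of them.

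The other 8 carbonic anhydrase genes on the chips were not part of the choice, and their adjusted p-values come from limma over all probe sets. Of their 9 probe sets 6 were tested and 0 were called, while 3 of the 5 tested genes had an unadjusted p under 0.05, beside 9.79% of all tested probe sets. Of these 3, Car15 passed the filter on dim values through Pr-HP alone and Car5b through the clone 4 populations alone, the populations where each is high, so the count is no support for a difference. The widest ratio was that of Car15, an enzyme with a lipid anchor like that of Car4, whose probe set 163442_at read 120.7 in Pr-LP, 231.9 in Pr-HP, 100.7 in C4-LP and 108.8 in C4-HP. Pr-HP lay above all responder populations, at 2.11 times their mean of 110.1 ± 10.03 (SD, n = 3), a log2 difference of 1.08. The limma adjusted p was 0.176, for a probe set that was tested only because of its value in Pr-HP.

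Car10, which like Car11 has no known catalytic activity and is secreted in the brain, was measured by a pair of probe sets on chip C. Probe set 167747_f_at, with the suffix explained for Car4, read 538.2 in Pr-LP, 1497 in Pr-HP, 921.5 in C4-LP and 818.6 in C4-HP. Probe set 166211_at, without that suffix, read 231.2, 557.8, 391.0 and 285.5 in the same order. Pr-HP was the highest population and Pr-LP the lowest in both, with the clone 4 populations between. The limma adjusted p-values were 0.459 and 0.468 for log2 differences of 1.02 and 0.92. Pr-HP was 2.78 and 2.41 times Pr-LP, whereas C4-HP was 0.888 and 0.730 times C4-LP.

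Car5b, a mitochondrial enzyme, had the opposite order, with 97.6 in Pr-LP, 65.6 in Pr-HP, 122.0 in C4-LP and 127.4 in C4-HP (110708_at, log2 difference of -0.81, limma adjusted p = 0.359). Its mitochondrial relative Car5a read 116.6 to 126.1 units over the 4 populations. Car6, the secreted enzyme of saliva, read 204.0 to 238.7 units, and the cytosolic Car7 read 148.3 to 170.0 units, with limma adjusted p-values of 0.994 and 0.840. Car1, the other red cell enzyme, read 87.4 to 104.5 units and was not tested. Car13 read 34.4 to 38.5 units, under the floor in every population.

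**Figure D2:**
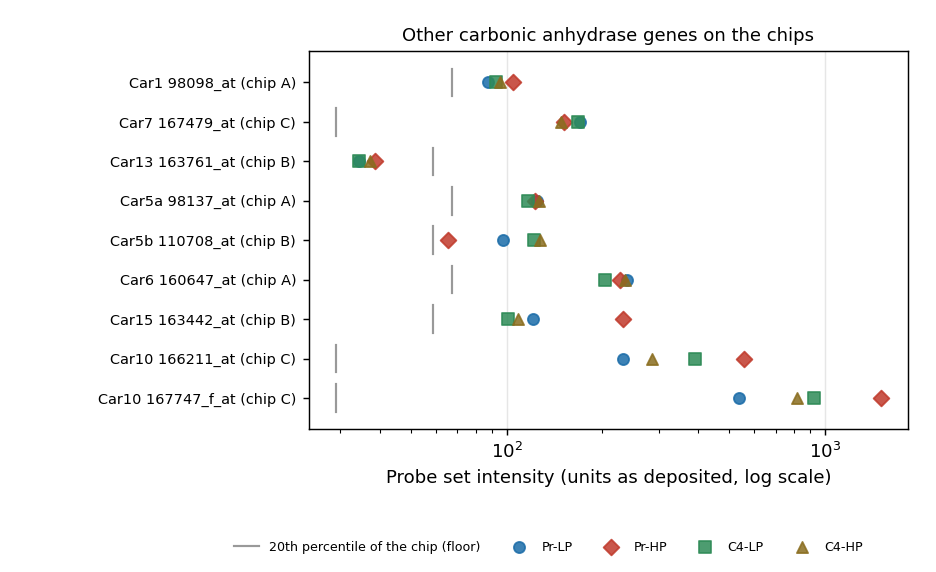
Intensity (units as deposited, log scale) of the 9 probe sets of the other 8 carbonic anhydrase genes in the 4 populations, 1 array for each point, with the floor of the chip as a grey tick. Pr-HP is the highest point for Car15 (231.9 units) and for both Car10 probe sets (557.8 and 1497 units) and the lowest for Car5b (65.6 units).

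Among the 18496 other probe sets of named genes that reached 100 units, those nearest in pattern to Car2 and Car8 were found by the Euclidean distance of centred log2 values over the 4 populations. Likeness over 4 points is a description of shape. Nearest to Car2 were Pqlc3 (distance 0.28), Sparcl1 (0.30), an extracellular matrix protein, Stmn2 (0.31), a microtubule regulator of neurons, Sox11 (0.34), a transcription factor of neural progenitors, and Cd68 (0.50), a lysosomal glycoprotein of macrophages. Pqlc3 read 159.3 in Pr-LP, 1741 in Pr-HP, 149.6 in C4-LP and 200.8 in C4-HP. Sparcl1 read 74.9, 908.7, 70.8 and 63.96, the last under the floor, in the same order. By this choice all 5 share the shape of Car2, with Pr-HP at 9.19 to 13.0 times the mean of the 3 responder populations.

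Nearest to Car8 were Mxi1 (distance 0.033), a partner of Max that opposes Myc, Nmt2 (0.051), an enzyme that adds myristate to proteins, Nr1d2 (0.078), a circadian repressor, Csrp2 (0.087), a LIM domain protein, and Cx3cl1 (0.10), a chemokine. Mxi1 read 222.1 in Pr-LP, 126.1 in Pr-HP, 122.6 in C4-LP and 126.0 in C4-HP. Nr1d2 read 1525, 864.0, 797.1 and 855.8 in that order. By the same choice, the single high population was Pr-LP in all 5, as in Car8.

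**Figure D3:**
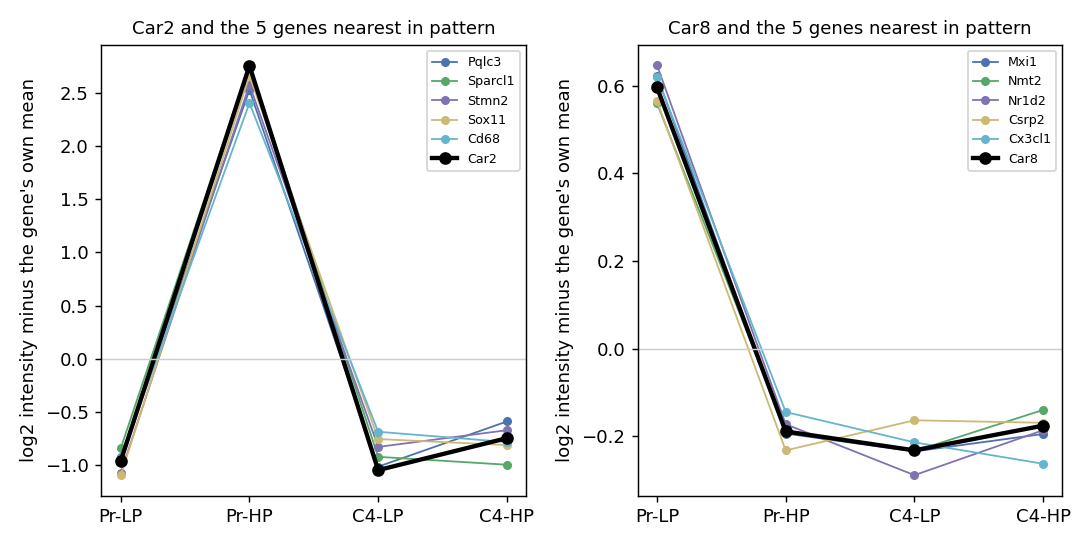
log2 intensity (values under the floor raised to it) minus the gene's own mean over the 4 populations, for Car2 (left) and Car8 (right) in black and the 5 genes nearest to each in colour. The Car2 curves peak in Pr-HP and the Car8 curves are highest in Pr-LP, and the vertical scales of the panels differ.

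In the reference annotation (GRCm38.p6) Car2 lies in a row with other family members, in the order Car13, Car1, Car3, Car2. The genes around it were looked at after the values had been seen. Pr-HP was 1.09 times the responder mean for Car13, with all values under the floor, 1.14 times for Car1 and 0.902 and 0.905 times for the Car3 probe sets. Beyond Car13, Rbis probe set 110746_f_at read 755.6 in Pr-LP, 1134 in Pr-HP, 744.9 in C4-LP and 770.1 in C4-HP. This was 1.499 times the responder mean in Pr-HP, while 110745_i_at had 1.603 times and 162799_at 0.990 times. E2f5, a cell cycle transcription factor on that side, had Pr-HP at 0.963 times the responder mean, and on the other side 4 probe sets of Ythdf3 had 0.947 to 1.08 times. A difference of the size of Car2 was thus not seen in the neighbours with a probe set. Those of Car13, Car1, Car3, Lrrcc1, Sirpb1a and Cypt12 did not pass the filter on dim values.

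Bicarbonate made by carbonic anhydrases is moved by transporters of the Slc4 and Slc26 families. Of 16 listed genes 12 were measured and 9 tested, and limma called 0 (0 with an unadjusted p under 0.05, lowest adjusted p 0.571). Their median log2 difference was 0.06. The widest was Slc4a10, a sodium-driven bicarbonate transporter, which read 391.1 in Pr-LP, 154.6 in Pr-HP, 981.4 in C4-LP and 304.2 in C4-HP. Pr-HP was the lowest population, but the responder populations were themselves spread (log2 difference of -1.66 ± 0.72 (SE), limma adjusted p = 0.571). The next on that side were Slc4a3 (-0.49) and Slc4a1 (-0.10), both chloride-bicarbonate exchangers. On the other side were the exchanger Slc4a2 (0.19), Slc4a8 (0.17) and Slc4a9 (0.09).

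The protons are moved by sodium-proton exchangers, lactate carriers and the vacuolar pump. Of 15 carrier genes 13 were measured and 9 tested, with a median log2 difference of 0.0080 and 0 calls by limma. An unadjusted p under 0.05 was found for 2 of the 9, beside 9.79% of all tested probe sets. Slc9a7, an exchanger of the Golgi, read 192.7 in Pr-LP, 328.0 in Pr-HP, 204.6 in C4-LP and 206.3 in C4-HP (log2 difference of 0.71 ± 0.10 (SE), limma adjusted p = 0.207). Emb, a partner protein of lactate carriers, read 1461, 2619, 1626 and 1866 in that order (0.67, limma adjusted p = 0.401). Pr-HP lay above all responder populations in both. The lactate carrier Slc16a3 had a log2 difference of 0.22. The lowest values were those of the carrier partner Bsg (-0.36) and of the exchangers Slc9a3 (-0.10) and Slc9a8 (-0.09).

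The vacuolar proton pump acidifies insulin granules. Of 22 listed genes 21 were measured and 18 tested, with a median log2 difference of 0.08. limma called 0, and 0 had an unadjusted p under 0.05. Pr-HP was above all responder populations in 7 of the 18 genes and below all in 0, beside 29.5% and 28.2% of probe sets. The widest differences were those of the subunits Atp6v1e1 (0.47), Atp6v1g1 (0.46) and Atp6v0e (0.33), and on the other side Atp6ap1 (-0.19), Atp6v0a2 (-0.17) and Atp6v1g2 (-0.16).

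Of 24 genes of the hypoxia response, to which Car9 also belongs, 21 were measured and 19 tested, Car9 not counted among them. Their median log2 difference was 0.10, and limma called 0 (1 with an unadjusted p under 0.05). Ldha, which makes lactate from pyruvate, read 358.3 in Pr-LP, 3059 in Pr-HP, 1397 in C4-LP and 580.3 in C4-HP (log2 difference of 2.21 ± 0.83 (SE), limma adjusted p = 0.529). Pfkp, a phosphofructokinase, read 157.3, 468.4, 219.2 and 191.9 in that order (1.32 ± 0.22 (SE), limma adjusted p = 0.258). Pr-HP was the highest population for both, while Car9 differed by 0.07. Other Pfkp probe sets had log2 differences of 1.57 (97834_g_at, tested only because of its value in Pr-HP) and 0.11 (164250_at on chip B). The size of the Pfkp difference thus depends on the probe set. The glycolytic Pgk1 had 0.50, and the lowest were Ndrg1 (-1.15, limma adjusted p = 0.524), P4ha2 (-0.44) and Pdk1 (-0.28).

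Car8 acts on inositol trisphosphate receptors, of which Itpr2 and Itpr3 were measured. Itpr2 read 234.7 in Pr-LP, 192.1 in Pr-HP, 195.3 in C4-LP and 208.5 in C4-HP. Itpr3 read 661.8, 492.7, 614.5 and 364.3 in the same order. These are the brightest probe sets of each gene. Pr-LP was the highest population for both, an order whose share over all probe sets was not computed. A further tested Itpr2 probe set, 101441_i_at, read 175.5 in Pr-LP, 59.4 in Pr-HP, 55.7 in C4-LP and 39.9 in C4-HP. All but Pr-LP were under the floor, and it passed the filter on dim values through Pr-LP alone. The size of the Itpr2 difference thus depends on the probe set. Itpr3 in C4-LP lay close to Pr-LP, unlike Car8. limma called 0 of the 2 (0 with an unadjusted p under 0.05), with log2 differences of -0.14 and -0.10.

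**Figure D4:**
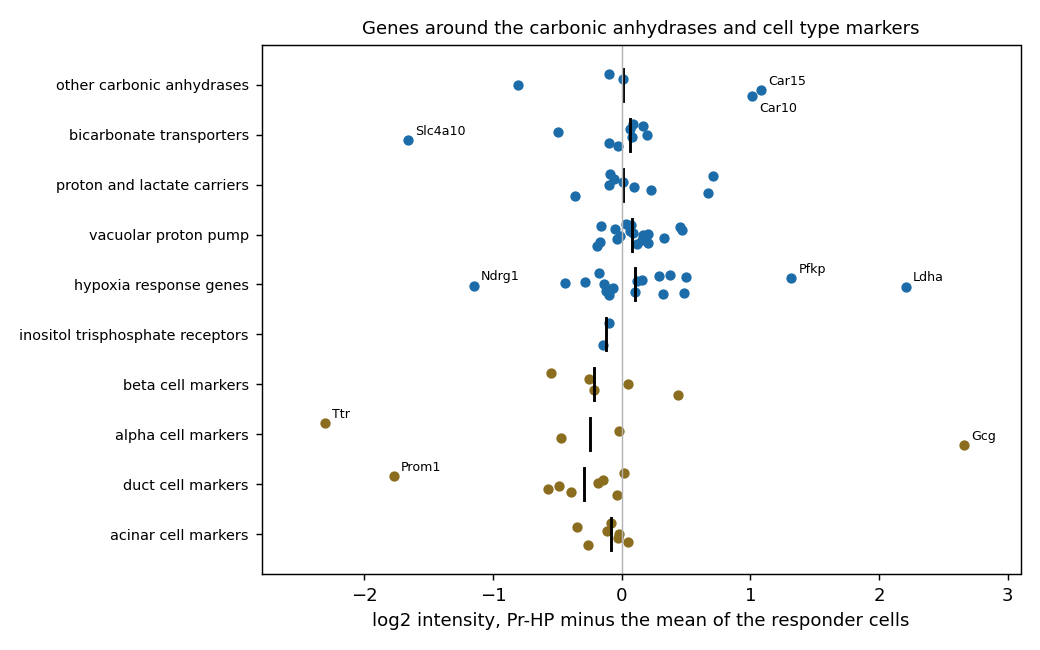
log2 intensity of Pr-HP minus the mean of the responder cells for the tested genes of each list, 1 point for a gene (the probe set of highest mean), with the list's median as a black bar. Blue marks genes around the carbonic anhydrases and brown marks cell type markers. Names are given beyond 1 on the log2 scale, where Ldha (2.21) and Gcg (2.66) are far to the right and Ttr (-2.31) is far to the left.

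Car2 is also known from pancreatic ducts and, by the study's account, from alpha cells. Markers of these and of the other pancreatic cell types are therefore given beside it. Of 12 duct markers 10 were measured and 8 tested. Pr-HP was above all responder populations in 0 of the 8 and below all in 4, beside 29.5% and 28.2% of probe sets. Of the 4, Aqp1 read 313.0 in Pr-HP against 313.1 in C4-LP, a gap too small to resolve on single arrays. Krt19 and Krt18 passed the filter on dim values through Pr-LP alone, where they are high. limma called 0 of the 8 (1 with an unadjusted p under 0.05). Krt19, a keratin that defines duct cells, read 223.4 in Pr-LP and 57.6, 57.6 and 56.4 in Pr-HP, C4-LP and C4-HP, the last 3 under the floor. Summed over the list, duct markers read 4982 in Pr-HP and 7128 to 7566 in the responder populations. Prom1 had the widest difference, with 551.3 in Pr-HP against 1161 to 2424 (log2 difference of -1.77, limma adjusted p = 0.436).

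Of 9 alpha cell markers 7 were measured and 4 tested. Gcg, the glucagon gene, read 501.7 in Pr-LP, 10552 in Pr-HP, 3175 in C4-LP and 2915 in C4-HP (165472_i_at, log2 difference of 2.66, limma adjusted p = 0.562). Ttr, a carrier of thyroid hormone, read 435.4, 248.0, 3135 and 1362 in that order, with Pr-HP the lowest. A second Gcg probe set, 94633_at, read 50.6, 2244, 345.6 and 274.7 in that order, with Pr-LP under the floor. The summed list, like every such sum dominated by its brightest probe sets, read 11625 in Pr-HP against 2042 to 7292 in the responder populations. Irx1, a homeobox gene of alpha cells, read 235.4 in Pr-HP and 265.6 to 474.6 in the responder populations, and Slc7a2, an amino acid carrier, had a log2 difference of -0.02. The median of the 4 was -0.25, with Pr-HP above all responder populations in 1 and below all in 2. limma called 0 of the 4 genes by their brightest probe set, and 0 had an unadjusted p under 0.05. With every probe set counted, 1 of 10 was called. This was 115390_at of Maf, a transcription factor of alpha cells, which read 285.8 in Pr-HP and 24.0 to 25.5 in the responder populations, under the floor. It was tested only because of its value in Pr-HP, and its responder values were all raised to the floor, so that its limma adjusted p of 0.0423 rests on the pooled variance. limma called 0 probe sets in all with the floor at the 40th percentile, without Pr-LP or without C4-HP. Another Maf probe set, 130990_at on chip C, read 68.4 in Pr-HP and 18.5 to 21.9 in the responder populations, under the floor. It too was tested only because of its value in Pr-HP. The brightest Maf probe set, 111115_at, read 104.8 in Pr-HP and 83.6 to 93.3 elsewhere. On chip A, 92354_at read 103.9 and 82.6 to 91.2, and neither of these was tested. By quantitative RT-PCR the study reported Maf and Gcg as high in Pr-HP and low in the responder cells. The part of these markers in the Car2 value was not tested.

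Of 12 acinar markers 9 were measured and 7 tested, and their sum was 2558 in Pr-HP against 2723 to 2912 (0 called by limma, 0 with an unadjusted p under 0.05). Delta and PP cell markers summed to 1134 in Pr-HP and 1101 to 1417 elsewhere, with 0 of 3 tested genes called and 0 with an unadjusted p under 0.05. As a check of the β-cell label, Ins2, an insulin gene, read 14771 units in Pr-LP, 15526 in Pr-HP, 15461 in C4-LP and 14920 in C4-HP. These are bright values, whose saturation was not tested, so they show that the gene is expressed and not that its level is equal. Ins1 was not analysed here, since no probe set had it as its only symbol, and it does not count as measured below. The study printed lower array values of Ins1 in Pr-HP than in each responder population, but found no significant difference on the arrays. By quantitative RT-PCR it reported lower Ins1 RNA in Pr-HP. Of 10 β-cell markers the 5 measured summed to 26240 in Pr-HP and 26007 to 28012 in the responder populations, and limma called 0 of the 5 (0 with an unadjusted p under 0.05). Ins2 is the largest part of this sum and Ins1 is not in it. The sums thus do not show that β-cell markers are unchanged in Pr-HP.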

How the data were processed

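Total RNA of 4 MIN6 populations was labelled with biotin and hybridised to U74 version 2 chips A, B and C (12 arrays). The authors deposited 1 linear intensity for each probe set and array, from GeneChip 5.1 software. The summarisation and normalization behind them were not given in the sources used here, and either could compress or shift differences. Of 36899 probe sets 198 controls were left out. Of the rest, 29131 had 1 symbol in the platform annotation, 724 several and 6846 none. The members and lists were chosen with earlier results of these data known.

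Values under the 20th percentile of a chip were raised to it. Probe sets with 1 array or more above the 40th percentile (23340) were fitted within each chip as log2 values with limma 3.58.1 (R 4.3.3, lmFit and eBayes), responder cells against Pr-HP, with Benjamini-Hochberg adjustment over 3 chips. The fit was tested on simulated data. A gene of several probe sets was represented by the brightest. Named were all carbonic anhydrases, calls and the 3 widest differences in each direction of each list, the 5 nearest patterns of Car2 and Car8, and markers. Levels were set side by side within a probe set. Alternatives were 2 normalizations, 2 floors, no filter, leaving out each responder population, and other probe sets. Upstream windows came from RefSeq.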

Additional observations from a re-analysis of the deposited data

Results flagged for a closer look

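For both Car10 probe sets the high passage population was above the low passage one in the parental cells and below it in the clone 4 cells. For 166211_at the log2 ratio of high over low passage number was 1.27 in the parental cells and -0.45 in clone 4 cells. For 167747_f_at it was 1.48 and -0.17. Each ratio is between 2 single arrays, differences under 0.1 were not considered, and the difference between the parental and the clone 4 cells was not tested.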

How the results depend on the processing

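The log2 difference of Car2 (3.67) was 3.56 to 3.76 over 8 alternatives, and the counts of members past 2-fold in the 4 pairs of populations were the same under both normalizations and both floors. limma called 0 genes of the lists and markers under every alternative, the brightest probe set standing for a gene. The counts over all probe sets did depend on the settings. Calls higher in Pr-HP, 15 as reported, were 26 with the floor at 1 unit, 0 with the floor at the 40th percentile and 101 without the filter. Calls higher in the responder cells, 4 as reported, were 0 with the floor at the 40th percentile and 7 without the filter. Leaving out 1 responder population gave 0 to 1 and 0 to 2 calls, none without Pr-LP or C4-HP. Probe sets with an unadjusted p under 0.05 numbered 2285 as reported, 2511 with the higher floor, and 2446, 2332 and 1696 without Pr-LP, C4-LP and C4-HP. Among single genes, the values of Car4 (0.15) and Car14 (0.10) were -0.11 and -0.04 with the other probe set, that of Car3 (-0.14) was 0 and that of Car15 (1.08) was 0.93 with the higher floor. Car8 and Car12 lay on both sides of 0 (-0.40 to 0.01 and -0.10 to 0.01). The cause of these differences was not tested. Counting every probe set was chosen after seeing the data. No paired analysis was possible because every population has replicate number 1 alone, so that the groups share fewer than 2 numbers. Car3, Car12, Car13 and 102773_at of Car8 lie near or under the floor, where a small difference could not be seen.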
